A study of Homo sapiens with 6 samples.

Results

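The mevalonate arm of cholesterol synthesis was followed in BT-549 breast cancer cells through 9 genes, of which 8 encode enzymes between acetoacetyl-CoA and squalene epoxide and 1, GGPS1, an enzyme of a side branch. The members were chosen as enzymes of this pathway and matched by gene symbol. All 9 (HMGCS1, MVK, PMVK, MVD, IDI1, FDPS, GGPS1, FDFT1 and SQLE) were found among the 63140 genes listed for each library, and all 9 were among the 14451 genes with enough counts to be tested.

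BT-549 is an established human line of triple negative breast cancer, and its genotype was given as WT in all 6 libraries. The study asked how adipocyte-secreted factors alter the expression of transgenes and native genes, with 3 replicates in adipocyte-conditioned medium (ACM) and 3 in unconditioned medium (UCM), each for 24 h in a 6-well plate. PolyA RNA of each replicate was sequenced, and total estimated counts were 18011677 to 21053214 in ACM and 17135270 to 20975771 in UCM. ACM was the supernatant of OP9 mouse stromal cells kept in an insulin and oleate medium with albumin so that they became adipocytes. The labels put it at 50% of the culture medium, whereas the study's methods describe undiluted ACM for RNA-seq, and this difference was not resolved. The cells were maintained in RPMI medium with fetal bovine serum and insulin, and the recipe of UCM was not given in the sources used here. Effects of adipocyte secretions, oleate, insulin, serum and base medium can therefore not be told apart. The sources used here do not say that the replicates came from separate cultures, so p-values measure the spread between these wells.

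The labelled cell type was epithelial, and the marker levels went against that name. Summed over 7 epithelial markers, transcript levels (TPM, scaled to a fixed library total and corrected for transcript length) lay between 1.02 and 2.21 in the 6 libraries, with CDH1 the marker with most counts (49 over the ACM and 71 over the UCM libraries) and EPCAM at 2 counts in all. The 5 mesenchymal markers summed to 2937 to 3535 TPM, most of it VIM at 2533 to 3151 TPM. ESR1 and PGR, the hormone receptors absent from triple negative tumours, had 0 counts in each library, and ERBB2 stood at 25.5 to 32.4 TPM. Of 7 adipocyte markers, ADIPOQ, LEP and CIDEC had 0 counts in each library and the list summed to 0.90, 0.50 and 0.15 TPM in ACM and to 0.04, 1.18 and 0 TPM in UCM. ADIRF had most counts of that list (5 over the ACM and 4 over the UCM libraries), so transcripts of these human genes were at or near 0 in both media. ACM came from mouse cells, so this list of human genes does not test for carry-over of their RNA.

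The mevalonate pathway condenses acetyl-CoA into mevalonate and turns it into isopentenyl diphosphate, the unit from which farnesyl diphosphate is built. Farnesyl diphosphate is a branch point, since it is joined head to head into squalene for sterols or lengthened and used for protein prenylation, dolichol and ubiquinone. Transcription of the enzymes is driven by SREBP2, a membrane-bound factor that SCAP escorts to the Golgi, where proteases release it, and that INSIG proteins hold back when sterols are plentiful, often together with the factors NF-Y and Sp1.

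In ACM, the transcripts of most enzymes of the arm were lower than in UCM. Lower expression passed the test for 7 of the 9 members (HMGCS1, MVK, IDI1, FDFT1, MVD, SQLE and FDPS), against 2.21% of all genes tested, and higher expression for 0 of 9, against 3.35% (edgeR quasi-likelihood test, Benjamini-Hochberg adjusted p at or below 0.05 over 14451 genes). At an unadjusted p of 0.05, edgeR called 8 of 9 lower, against 11.5% of tested genes, and 0 of 9 higher, against 11.9%. DESeq2 called 0 of 9 higher at an adjusted p, and the share of all tested genes that it called is not given here. The study's thresholds were a p of 0.05, read here as unadjusted, and a log2 fold change of at least 0.58. The same 7 members also passed both downward, as did 1.71% of the tested genes, while 0 of 9 passed upward, against 4.12%. In CPM, counts scaled to a common library size, every ACM value was below every UCM value in 8 of 9 members, against 15.1% of tested genes, and above in 1 of 9, against 13.9%. The median log2 fold change (ACM over UCM) was -1.29 over the 9 members and -0.01 over the 14451 tested genes. Less RNA per cell and a smaller share of cells that express a gene cannot be told apart in RNA from whole wells.

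Promoter windows were matched by symbol for 7 of the 9 members (all but FDFT1 and SQLE) in a RefSeq table of build GRCh38.p14 that holds 35116 windows. NF-Y is known to bind the letters CCAAT. Where a gene had several windows, the one whose start was nearest to the GENCODE start was used, at a distance of 0 to 539 bases. Each sequence is the longest stretch, within the 250 bases before the RefSeq start, that no annotated exon covers, written 5′ to 3′ on the strand of the gene. The stretches are chr5:43313513-43313662 (minus strand) for HMGCS1, chr12:109573581-109573792 (plus) for MVK, chr1:154936720-154936969 (minus) for PMVK, chr16:88663162-88663297 (minus) for MVD, chr10:1049120-1049369 (minus) for IDI1, chr1:155308616-155308747 (plus) for FDPS and chr1:235326969-235327159 (plus) for GGPS1. Capitals mark whole CCAAT matches on either strand, so that ATTGG is a match on the opposite strand.
HMGCS1: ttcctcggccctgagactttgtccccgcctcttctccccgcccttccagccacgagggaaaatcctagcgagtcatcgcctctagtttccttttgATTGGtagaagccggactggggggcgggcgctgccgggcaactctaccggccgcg
MVK: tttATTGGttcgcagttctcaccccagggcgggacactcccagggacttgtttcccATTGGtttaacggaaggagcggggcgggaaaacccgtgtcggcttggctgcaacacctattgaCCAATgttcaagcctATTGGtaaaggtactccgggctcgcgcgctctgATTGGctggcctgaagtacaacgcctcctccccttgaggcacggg
PMVK: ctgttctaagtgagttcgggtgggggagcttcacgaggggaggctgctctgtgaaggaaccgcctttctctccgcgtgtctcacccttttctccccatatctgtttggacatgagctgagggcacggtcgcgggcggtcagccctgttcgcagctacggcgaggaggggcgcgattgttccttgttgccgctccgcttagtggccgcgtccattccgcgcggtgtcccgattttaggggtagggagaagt
MVD: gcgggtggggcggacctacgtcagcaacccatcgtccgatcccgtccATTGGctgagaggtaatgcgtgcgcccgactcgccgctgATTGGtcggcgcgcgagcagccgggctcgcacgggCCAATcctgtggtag
IDI1: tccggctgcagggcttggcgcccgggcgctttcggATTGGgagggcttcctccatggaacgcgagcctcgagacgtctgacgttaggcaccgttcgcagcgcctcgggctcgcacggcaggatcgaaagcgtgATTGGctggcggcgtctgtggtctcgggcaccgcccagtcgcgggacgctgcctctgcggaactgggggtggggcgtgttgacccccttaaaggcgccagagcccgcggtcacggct
FDPS: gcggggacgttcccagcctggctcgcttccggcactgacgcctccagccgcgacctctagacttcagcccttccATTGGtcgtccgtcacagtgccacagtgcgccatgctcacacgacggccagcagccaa
GGPS1: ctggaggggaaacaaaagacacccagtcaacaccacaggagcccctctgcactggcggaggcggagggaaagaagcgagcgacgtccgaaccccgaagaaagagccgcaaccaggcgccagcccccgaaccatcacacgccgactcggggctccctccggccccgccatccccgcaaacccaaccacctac

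Over the full 250 bases before the RefSeq start, CCAAT occurred 5 times for MVK, 3 times for MVD, 3 times for FDPS, 2 times for HMGCS1 and 2 times for IDI1. The RefSeq start of MVK lies 539 bases inside the gene as GENCODE annotates it, so its printed stretch and all 5 matches fall inside the annotated gene. For FDPS, with a RefSeq start 118 bases inside, 1 match lay past the GENCODE start and 1 spanned it, and for HMGCS1, 100 bases inside, 1 of 2 matches began at it. PMVK and GGPS1, the members among these 7 that did not pass the expression test, had 0 matches in these windows. Other RefSeq windows differed, with 1 match in 1 of the 2 others of GGPS1, 3 and 0 in those of IDI1 and 0 in that of HMGCS1. At least 1 CCAAT was found in 32.0% of the windows of the table over the same 250 bases, at least 2 in 9.53%, at least 3 in 2.93% and at least 5 in 0.319%. The GC box GGGCGG, a sequence bound by Sp1, was present in 6 of the 7 windows (all but that of GGPS1, whose 2 other windows held 2 each) and in 42.6% of the table. The sterol regulatory element core TCACNCCAC was in 0 of the 7 windows and in 0.883% of the table, and the E-box CACGTG in 0 of the 7 and in 6.34%. All motifs were searched on both strands, and no match overlapped another (0 pairs). These matches describe letters and were not tested for use, and a motif that is not found says nothing of the factor.

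**Figure D1:**
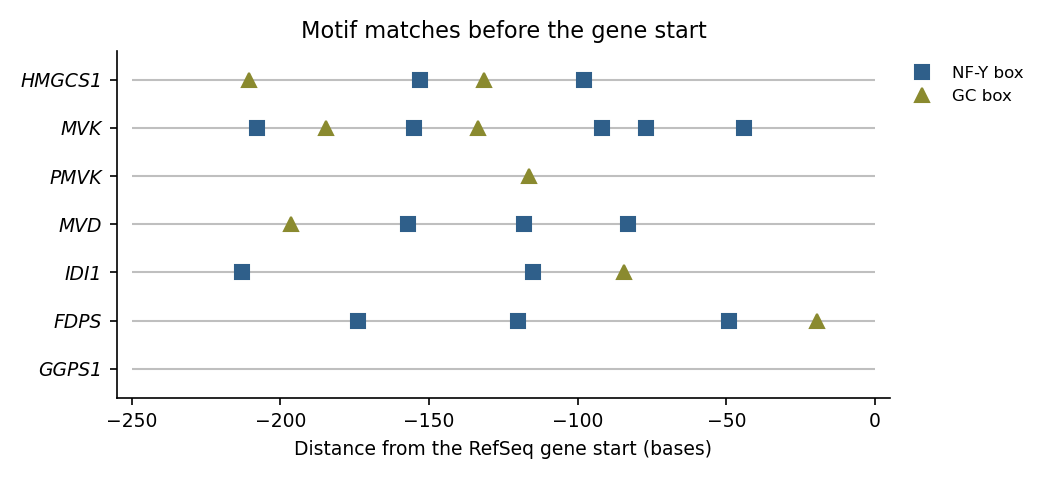
Positions of CCAAT (NF-Y box, squares) and GGGCGG (GC box, triangles) on either strand along the 250 bases before the RefSeq start. The horizontal axis is the distance from the start in bases, with 1 row for each of the 7 members searched. MVK holds 5 squares and MVD and FDPS 3 each, whereas the rows of PMVK and GGPS1 hold no squares.

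HMGCS1 encodes the cytosolic synthase that joins acetyl-CoA and acetoacetyl-CoA into HMG-CoA (chr5:43287470-43313512, minus strand). Its expression, in CPM, was 43.9, 49.7 and 39.9 in the ACM libraries and 139, 215 and 221 in the UCM libraries. The highest ACM value lay far below the lowest UCM value, and UCM replicate 1 stood below the other UCM libraries. With means of 44.5 ± 4.92 and 192 ± 46.1 CPM (SD, n = 3 libraries each), HMGCS1 fell by 2.11 on the log2 scale (SE 0.19, 95% interval -2.57 to -1.65, edgeR adjusted p = 0.00377). This was the lowest log2 fold change of the 9 members and the 6th lowest of all genes tested.

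MVK, the kinase that adds a phosphate to mevalonate (chr12:109573255-109598125, plus strand), was measured at 10.9, 10.0 and 9.78 CPM in ACM and at 25.5, 37.3 and 38.1 CPM in UCM. Again no ACM library reached the lowest UCM library. The log2 fold change was -1.71 (SE 0.16, 95% interval -2.06 to -1.36, edgeR adjusted p = 0.0010), from 178 to 230 counts per library in ACM and 538 to 693 in UCM. PMVK, which phosphorylates the product of MVK (chr1:154924740-154936719, minus strand), stood apart from its neighbours in the pathway. It was present at 30.5, 31.4 and 33.1 CPM in ACM and at 25.1, 30.4 and 30.2 CPM in UCM. All ACM libraries were slightly above all UCM libraries, by less than the gap between UCM replicate 1 and the other UCM libraries. The log2 fold change of 0.15 (SE 0.10, 95% interval -0.07 to 0.37) did not pass the test (edgeR adjusted p = 0.408). A rise of more than 0.37 or a fall of more than 0.07 on the log2 scale lay outside the interval.

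MVD removes carbon dioxide from the doubly phosphorylated mevalonate and so forms isopentenyl diphosphate (chr16:88651935-88663161, minus strand). Its values were 37.8, 33.6 and 34.1 CPM in ACM against 67.8, 95.8 and 94.0 CPM in UCM. The groups were well separated, with the ACM libraries close together and the UCM libraries spread by replicate 1. MVD fell by 1.29 on the log2 scale (SE 0.13, 95% interval -1.59 to -0.99, edgeR adjusted p = 0.00232).

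IDI1 interconverts isopentenyl and dimethylallyl diphosphate, the partners of the first chain-lengthening step (chr10:1039152-1049119, minus strand). The ACM libraries held 27.9, 29.9 and 29.7 CPM and the UCM libraries 63.7, 96.5 and 95.8 CPM. Expression in ACM varied little between wells, and each value was under the lowest of UCM. IDI1 fell by 1.55 (log2, SE 0.16, 95% interval -1.91 to -1.19, edgeR adjusted p = 0.00254). FDPS, the synthase of farnesyl diphosphate (chr1:155308748-155320666, plus strand), had the least decrease of the members that passed. Its expression was 106, 103 and 106 CPM in ACM and 135, 173 and 176 CPM in UCM. These groups did not overlap, and UCM replicate 1 was again the lowest of its group. The log2 fold change was -0.62 (SE 0.10, 95% interval -0.83 to -0.40, edgeR adjusted p = 0.00797), an interval that includes the size of 0.58 required by the study.

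GGPS1 lengthens farnesyl diphosphate into geranylgeranyl diphosphate for protein prenylation and lies on a side branch away from sterols (chr1:235327350-235344532, plus strand). Its level was 28.2, 31.0 and 33.9 CPM in ACM and 34.8, 38.3 and 37.3 CPM in UCM. The highest ACM and the lowest UCM library nearly met, and in TPM they overlapped (25.9, 28.7 and 30.7 against 29.7, 36.8 and 31.4). A log2 fold change of -0.25 (SE 0.09, 95% interval -0.46 to -0.04, unadjusted p = 0.0241) did not pass after adjustment (edgeR adjusted p = 0.147).

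FDFT1, squalene synthase, takes farnesyl diphosphate into the sterol branch (chr8:11795573-11839395, plus strand). Its expression was 133, 155 and 143 CPM in ACM and 302, 458 and 447 CPM in UCM. The ACM libraries were all under the lowest UCM library, which was again replicate 1. FDFT1 fell by 1.48 on the log2 scale (SE 0.16, 95% interval -1.86 to -1.10, edgeR adjusted p = 0.00508). SQLE, the epoxidase that uses oxygen to form squalene epoxide (chr8:124998497-125022283, plus strand), closed the arm. It stood at 139, 144 and 133 CPM in ACM and at 233, 295 and 311 CPM in UCM. There was no overlap, and SQLE fell by 1.01 (log2, SE 0.10, 95% interval -1.24 to -0.78, edgeR adjusted p = 0.00188), to 0.497 times its UCM level.

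**Figure D2:**
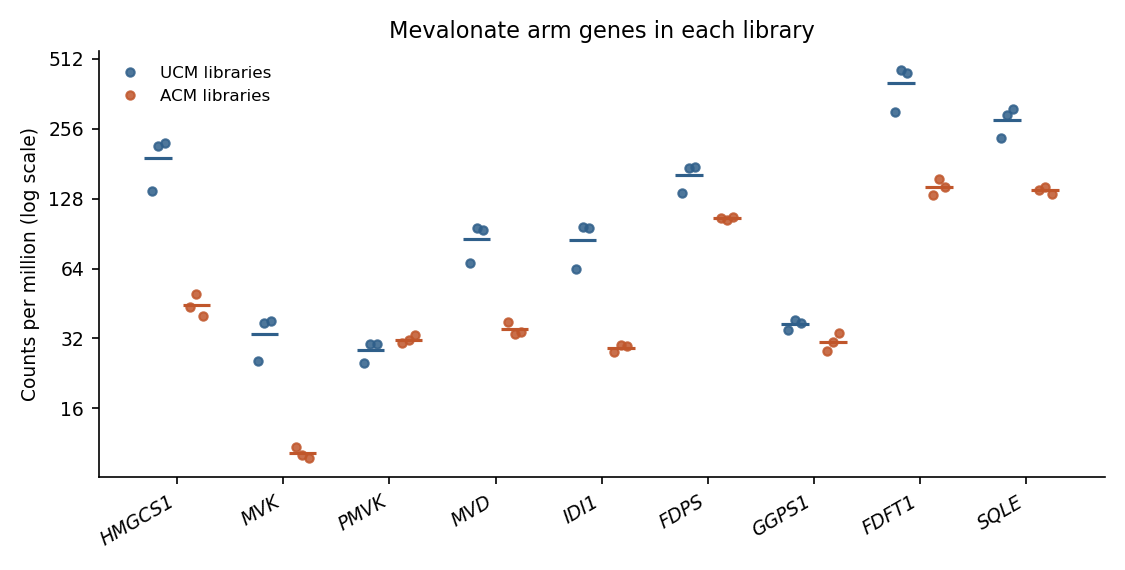
Expression of the 9 members in CPM (log scale) in each library, with UCM in blue, ACM in orange, 3 points per group and a bar at the group mean. HMGCS1 lies at 39.9 to 49.7 in ACM and 139 to 221 in UCM, whereas the groups of PMVK and GGPS1 lie close together.

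**Figure D3:**
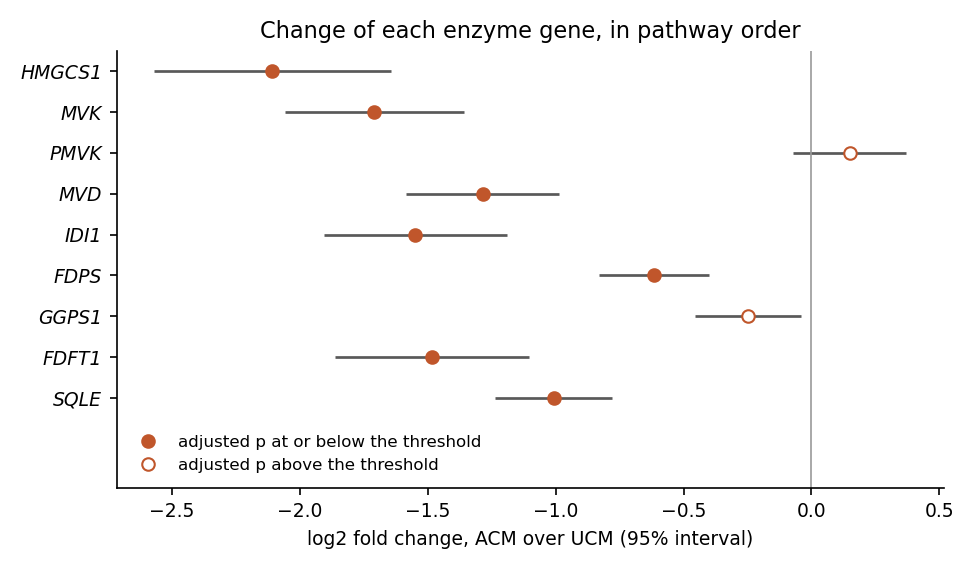
Log2 fold change of each member, ACM over UCM, in pathway order from top to bottom, with 95% intervals as lines and filled points for an edgeR adjusted p at or below 0.05. The values run from -2.11 for HMGCS1 to 0.15 for PMVK, and the open points are PMVK and GGPS1.

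A stricter test, which asks whether the change exceeds 0.58 on the log2 scale (edgeR glmTreat), called 9 genes lower and 10 higher out of 14451. Of these 9 lower genes, 4 were members (HMGCS1, MVK, MVD and IDI1). MSMO1 and DHCR7 of the later sterol steps, the regulator INSIG1 and CRISPLD2, a gene of none of the lists that was named after its value was seen, were also among the 9.

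The members varied together among the UCM wells. In UCM replicate 1, each of the 9 members was below its UCM mean (mean deviation -0.30, log2), while UCM replicates 2 and 3 were above it by 0.15 each. Over all genes, the median deviation in UCM replicate 1 was -0.0098. In ACM the mean deviations of the members were -0.02, 0.03 and -0.01. The genes of the later sterol steps were shifted in the same well, with 11 of 11 below their UCM mean (mean deviation -0.30), and so were those that supply acetyl-CoA, with 6 of 6 (-0.24). In the other lists, 14 of 18 genes of isoprenoid metabolism (-0.06), 8 of 13 SREBP regulators (-0.03) and 5 of 7 sterol transport genes (-0.11) were below it, while the 4 efflux genes deviated by 0.16 on average, with 2 below. Total counts of UCM replicate 1 (20975771) were above those of the other UCM libraries (18591257 and 17135270), and the part of depth in the shift was not tested. Without UCM replicate 1, the median log2 fold change was -1.42 over the members and 0.0082 over the 14684 genes tested. In that fit 7 of 9 members were lower in edgeR, and the share of all tested genes called is not given here.

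Levels were compared between members in TPM, which corrects for length. In UCM, FDFT1 was the most abundant (287, 414 and 404 TPM), followed by FDPS (210, 268 and 275 TPM). Then came SQLE with a mean of 153, HMGCS1 with 123, MVD with 97.7, IDI1 with 69.0, PMVK with 56.5, GGPS1 with 32.6 and MVK with 29.0 TPM. The order from FDFT1 down to GGPS1 held in each of the 3 UCM libraries, although the ranges of SQLE and HMGCS1, of HMGCS1 and MVD and of IDI1 and PMVK overlapped between libraries. GGPS1 was above MVK in only 2 of 3 UCM libraries, so these are not ordered. In ACM the order differed, with FDPS first (164, 155 and 167 TPM) and FDFT1 next (131, 143 and 137 TPM). SQLE (mean 74.1), PMVK (61.9) and MVD (37.7 TPM) followed, then GGPS1 (28.5) and HMGCS1 (28.2), which are not ordered (GGPS1 was above HMGCS1 in 1 of 3 ACM libraries), IDI1 (23.0) and MVK (8.99 TPM). PMVK thus went from rank 7 to rank 4 of 9 without a tested change of its own, and HMGCS1 went from rank 4 to rank 7 by the means.

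The ratio of FDFT1 to FDPS, the enzymes that use and make farnesyl diphosphate, was 0.798, 0.923 and 0.816 in the ACM libraries and 1.37, 1.54 and 1.47 in the UCM libraries (TPM over TPM). FDPS transcripts thus outnumbered those of FDFT1 in every ACM library and in no UCM library. An exact permutation test over the 20 regroupings of 3 against 3 libraries cannot give a two-sided p below 0.10, and no other test of this ratio was run. Summed over the 9 members, TPM came to 554, 560 and 570 in ACM and to 952, 1290 and 1299 in UCM. The sum in ACM was 0.476 times that in UCM, and UCM replicate 1 alone lay far from the others of its group. FDPS held 27.8% to 29.5% of the sum in ACM and FDFT1 30.1% to 32.1% in UCM.

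**Figure D4:**
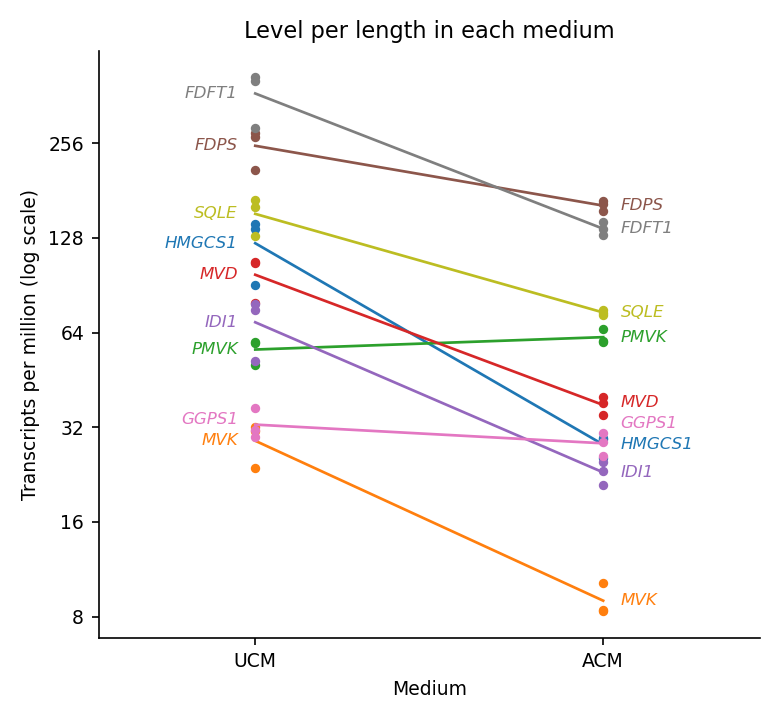
TPM (log scale) of the 9 members in UCM (left) and ACM (right), with a point for each library and a line between the group means. FDFT1 and FDPS cross over, from means of 368 and 251 TPM in UCM to 137 and 162 TPM in ACM, while the line of PMVK stays nearly level.

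The effective length by which RSEM divides counts, an average over the transcripts of a gene in that library, was followed as a readout of transcript mix. Its groups did not overlap for 2 of the 9 members. For MVD it was 1341, 1331 and 1290 bases in ACM and 1238, 1263 and 1264 bases in UCM, longer by 65.6 bases on average. For FDFT1 it was 1444, 1500 and 1516 bases in ACM and 1531, 1562 and 1586 bases in UCM, with an average difference of -72.6 bases. Across all tested genes, all ACM lengths were above all UCM lengths in 5.49% and below them in 3.70%. With 3 against 3 libraries an exact permutation test cannot give a p below 0.10, and no other test of the length differences of MVD and FDFT1 was run. On the TPM scale, the log2 ratio of the group means was -1.38 for MVD and -1.43 for FDFT1, near the log2 fold changes of -1.29 and -1.48 from counts. PMVK, with 1 annotated transcript, varied only between 719 and 726 bases. GGPS1 had the widest spread in UCM (1700, 1472 and 1702 bases) and overlapped with ACM (1540, 1494 and 1593 bases).

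Several members share sequence with other genes, and whether reads were counted by strand was not given in the sources used here. MVK and MMAB, which encodes a cobalamin adenosyltransferase, lie head to head on opposite strands, with starts 325 bases apart and the first bases of both genes overlapping. MMAB was measured at 5.99, 6.82 and 6.03 CPM in ACM and at 11.7, 19.6 and 18.0 CPM in UCM. Its groups did not overlap, and it fell by 1.38 on the log2 scale (SE 0.19, edgeR adjusted p = 0.00498). Counts of MMAB amounted to 51.6% of those of MVK. Reads from the stretch that MVK and MMAB share cannot be told apart without strand. WDR37 starts 419 bases from IDI1 on the opposite strand, without overlap, and held 17.7, 16.3 and 14.8 CPM in ACM and 18.8, 19.3 and 16.7 CPM in UCM. Its groups overlapped, with a log2 fold change of -0.17 (SE 0.11, edgeR adjusted p = 0.414). SNAI3-AS1, an antisense transcript that starts 137 bases from MVD, had a log2 fold change of -0.73 (SE 0.37) and overlapping groups (edgeR adjusted p = 0.267). ARID4B, which overlaps GGPS1 on the opposite strand, had a log2 fold change of 0.02 (SE 0.10, edgeR adjusted p = 0.934). Its counts amounted to 129% of those of GGPS1. The antisense transcripts IDI2-AS1 over IDI1 (log2 fold change -1.17, SE 0.43, edgeR adjusted p = 0.134) and RUSC1-AS1 over FDPS (-0.55, SE 0.34, edgeR adjusted p = 0.383) held 2.49% and 3.25% of the counts of their partners.

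GGPS1 is further overlapped on its own strand by a readthrough gene without a symbol (ENSG00000285053), whose counts amounted to 19.0% of those of GGPS1. This gene was at 4.66, 3.89 and 4.46 CPM in ACM and 6.68, 12.04 and 6.94 CPM in UCM. It fell by 0.98 on the log2 scale (SE 0.24, edgeR adjusted p = 0.0445), with no overlap between the groups. The estimated counts divide shared reads between both genes, so the split is uncertain. When both were counted as 1 gene, an alternative chosen after the values were seen, the sum was 32.8, 34.9 and 38.3 CPM in ACM and 41.5, 50.4 and 44.3 CPM in UCM, with a log2 fold change of -0.36 (SE 0.10, edgeR adjusted p = 0.0609). GGPS1 thus did not pass the test with or without it.

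Copies of the members took almost no reads. The 8 FDPS pseudogenes and 3 IDI1 pseudogenes held 0 to 9 counts each over the 6 libraries, with FDPSP8 the highest. The paralog IDI2 had 0 counts in each library. Other neighbours, an antisense transcript in each of HMGCS1 (14.1 counts over the 6 libraries) and FDFT1 (6 counts) and the divergent transcripts next to PMVK and SQLE (0 counts), were too low to test. So was a pseudogene inside GGPS1 (0 counts).

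Genes upstream of the arm were followed as a list of 7, most of which supply acetyl-CoA and acetoacetyl-CoA. Of 6 tested, 4 were lower and 0 higher in edgeR, with a median log2 fold change of -0.45. For this and the following lists, the shares of all tested genes called by edgeR were 2.21% lower and 3.35% higher at an adjusted p, and 11.5% lower and 11.9% higher at an unadjusted p. Such shares are not given here for DESeq2, so its counts are not compared with all tested genes. ACAT2, the cytosolic thiolase that makes acetoacetyl-CoA, was at 50.0, 56.7 and 60.7 CPM in ACM and 113, 177 and 180 CPM in UCM. It fell by 1.49 (log2, SE 0.19, edgeR adjusted p = 0.00915) and its groups did not overlap. ACSS2, which activates acetate, fell by 1.09 (SE 0.15, edgeR adjusted p = 0.00377). ACLY, which splits citrate, fell by 0.47 (SE 0.07, edgeR adjusted p = 0.00683) and the citrate carrier SLC25A1 fell by 0.43 (SE 0.10, edgeR adjusted p = 0.0340). ACAT1, the mitochondrial thiolase, had a log2 fold change of -0.02 (SE 0.12, edgeR adjusted p = 0.944). At an unadjusted p, 4 genes of the list were lower and 1 was higher, DESeq2 called 0 higher, and ACAT1 was named after its value was seen.

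Downstream, 10 of the 11 genes from lanosterol synthesis to cholesterol were lower and 0 were higher in edgeR (0 also at an unadjusted p and in DESeq2), with a median log2 fold change of -1.01. MSMO1, the methylsterol oxidase, was at 17.1, 19.5 and 15.5 CPM in ACM and 62.7, 91.2 and 91.5 CPM in UCM. It fell by 2.23 on the log2 scale (SE 0.16, edgeR adjusted p = 0.0010), and its groups did not overlap. HSD17B7 fell by 1.53 (SE 0.20, edgeR adjusted p = 0.00327), DHCR7 fell by 1.51 (SE 0.14, edgeR adjusted p = 0.00219) and CYP51A1 fell by 1.10 (SE 0.16, edgeR adjusted p = 0.0122). TM7SF2, a sterol reductase named after its value was seen, was the gene that did not pass in edgeR (-0.79, SE 0.23, edgeR adjusted p = 0.0749). DESeq2 called all 11 lower, and the share of all tested genes that it called is not given here.

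Isoprenoid metabolism outside sterol synthesis was followed as a further list, which holds prenyltransferases, enzymes that process or break down prenylated proteins, and enzymes of dolichol, ubiquinone, heme A and tRNA modification. Of 18 tested genes of 19, 0 were lower and 0 higher in edgeR and in DESeq2 at an adjusted p, and 3 were lower and 0 higher at an unadjusted p, beside 11.5% and 11.9% of all tested genes. Their median log2 fold change was -0.07, and the lowest single value was -0.32, for COX10 (named after its value was seen). The lists were not tested against each other.

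Among 13 genes that process or regulate SREBP, 2 were lower and 0 higher in edgeR, with a median log2 fold change of 0.06. INSIG1, which holds the SREBP-SCAP complex in the endoplasmic reticulum and is itself a sterol-responsive gene, was at 32.3, 40.0 and 30.2 CPM in ACM and 95.9, 136 and 142 CPM in UCM. It fell by 1.87 (log2, SE 0.17, edgeR adjusted p = 0.00302), and the groups did not overlap. SREBF2, which encodes SREBP2, fell by 0.61 (SE 0.08, edgeR adjusted p = 0.00377), from 216, 236 and 235 CPM in UCM to 143, 168 and 141 CPM in ACM. SREBF1, named after its value was seen, did not pass in edgeR (0.24, SE 0.07, edgeR adjusted p = 0.0583). Another 2 genes, INSIG2 and MBTPS1, also named after their values were seen, were higher with it at an unadjusted p, and DESeq2 called 1 gene of the list higher.

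Of 9 genes of sterol transport and other sterol-responsive genes, 7 were tested, 3 were lower and 0 higher in edgeR, and the median log2 fold change was -0.30. STARD4, a sterol carrier, fell by 1.26 (SE 0.17, edgeR adjusted p = 0.00615), TMEM97 fell by 0.75 (SE 0.13, edgeR adjusted p = 0.0158) and LPIN1, a phosphatidate phosphatase, fell by 0.70 (SE 0.12, edgeR adjusted p = 0.00893). NPC1, named after its value was seen, was higher at an unadjusted p (0.57, SE 0.18, unadjusted p = 0.0141) but not in edgeR after adjustment, and DESeq2 called 1 gene of the list higher. The sterol efflux list held 6 genes of efflux, of its LXR regulators and of other sterol responses. Of these, 4 were tested, and 1 was higher and 0 lower in edgeR (0 also at an unadjusted p and in DESeq2). Their median log2 fold change was 0.14. ABCA1, the exporter of cholesterol to apolipoproteins, was at 26.8, 42.4 and 25.8 CPM in ACM and 4.26, 1.99 and 2.16 CPM in UCM. It moved against the mevalonate arm, with a log2 fold change of 3.47 (SE 0.34, edgeR adjusted p = 0.00401) and no overlap. Of the 4 tested genes, 3 had a log2 fold change above 0 and 1 below. The gene below was MYLIP, named after its value was seen, with groups that did not overlap. It did not pass the test (-0.38, SE 0.18, edgeR adjusted p = 0.245). ABCG1 had 0 counts in each library and was not tested.

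**Figure D5:**
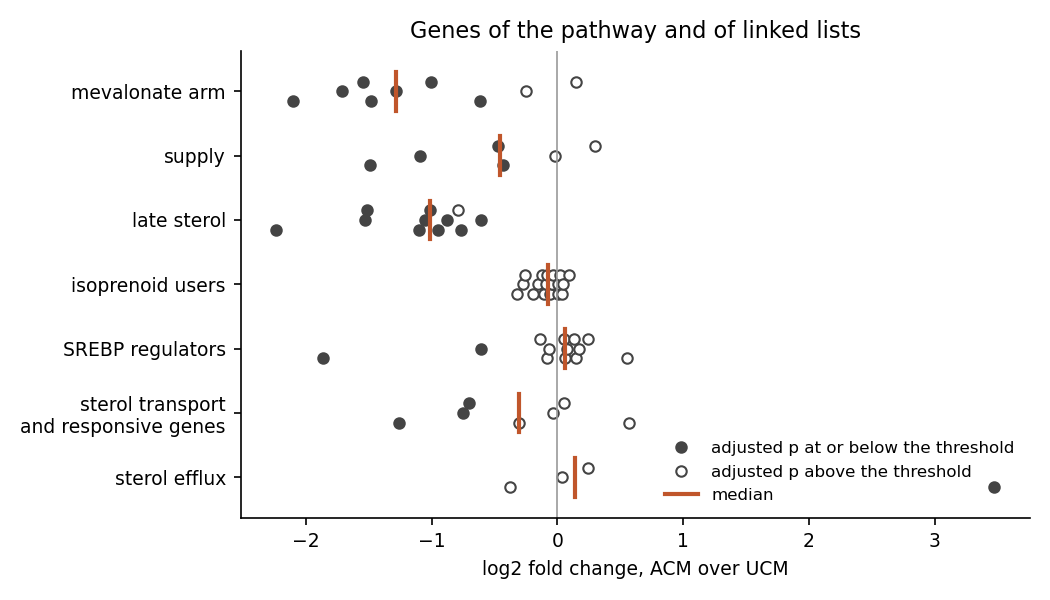
Log2 fold change (ACM over UCM, horizontal axis) of every tested gene of the mevalonate arm and of the 6 linked lists, 1 row per list, with filled points for an edgeR adjusted p at or below 0.05, open points otherwise and an orange bar at the median. The medians are -1.29 for the mevalonate arm, -1.01 for the late sterol genes and -0.07 for isoprenoid metabolism (isoprenoid users on the axis).

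The genes with the most similar profile were sought among 10896 tested genes with a mean of at least 5 CPM, by the root mean square difference of centred log2 CPM from the mean profile of the members over the 6 libraries. Nearest were IDH1 (a difference of 0.025), the cytosolic enzyme that makes NADPH from isocitrate, and GRM2 (0.026), a glutamate receptor. IDH1 was at 32.0, 33.6 and 32.7 CPM in ACM and 58.2, 79.5 and 79.7 CPM in UCM. GRM2 was at 3.18, 3.32 and 3.32 CPM in ACM and 5.54, 7.37 and 7.70 CPM in UCM, a low level of expression. It reached the required mean of 5 CPM only through its UCM values, so near that limit the filter favours genes that are higher in UCM or in ACM. ACSS2 (0.058) and NSDHL (0.062), a sterol dehydrogenase, were also among the nearest 5. For comparison, the members themselves differed from their mean profile by 0.057 (SQLE) to 0.621 (PMVK).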

How the data were processed

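Gene expression was measured by RNA-seq of polyA RNA in 3 ACM and 3 UCM libraries of BT-549 cells. The authors trimmed and aligned the reads and counted them per gene with Trim Galore, STAR and RSEM on GRCh38 (hg38), as the submitters' processing notes name them, with versions and strand setting not given in the sources used here. The deposited expected counts are RSEM's estimates, which divide reads shared by several genes and need not be whole. The deposited TPM are scaled to a fixed total per library and corrected for length. The authors' effective length, the other deposited quantity used, is a mean over the transcripts of a gene in that library. A table of the authors' own fold changes and p-values between ACM and UCM was not used. Gene positions and the names of neighbours and pseudogenes came from GENCODE 44, which held 61547 of the 63140 gene IDs with their versions. Symbols of the counted genes came from a separate reference list, which named 62541 of the IDs, matched with or without the version.

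After rounding to integers, expected counts were fitted in edgeR 4.0.16 (R 4.3.3) with filterByExpr, TMM factors and robust quasi-likelihood dispersion. The model held medium alone, and p-values were adjusted over 14451 genes by the Benjamini-Hochberg method. SE is the absolute log2 fold change over the root of F. CPM used the TMM-scaled library sizes. The ACM libraries summed to 21053214, 18011677 and 18378771 counts, the UCM libraries to 20975771, 18591257 and 17135270, and the common biological coefficient of variation was 0.115. A ratio and the effective lengths are given as descriptions, since exact permutation of 3 against 3 libraries has a smallest p of 0.10 and no other test of them was run. The fits were also run on simulated data with known changes, and the outcome is not given here. Promoter motifs and summaries were computed in Python 3.11.15 (pandas 2.3.3), and figures were drawn in matplotlib 3.10.9.

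Named genes were all members, up to 4 genes of each list that passed the adjusted p by size of change, neighbours that overlap a member or start within 1000 bases of it, pseudogenes and paralogs, and the 5 nearest profiles. Some genes picked by this rule are not reported here. The members and lists were chosen with earlier results of these data known. Alternatives were DESeq2 1.42.0, RLE factors, other count filters, limma-trend (limma 3.58.1) on log2 TPM with a pseudocount of 1 or 0.1, effective-length offsets, a replicate block, glmTreat, each library left out and a promoter window of 300 bases.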

Additional observations from a re-analysis of the deposited data

How the results depend on the processing

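The count of 7 of 9 members lower in ACM was found under each alternative test, normalization, filter and left-out library except glmTreat, where it was 4, since that test requires a change beyond 0.58. Under glmTreat, FDPS, FDFT1 and SQLE no longer passed. In the other 14 alternatives each member kept its direction and its side of the adjusted p, and FDPS came nearest to the threshold, with adjusted p from 2.06e-11 to 0.0470 and log2 fold changes of -0.72 to -0.54. With libraries left out, 6 or 7 members passed the study's thresholds, 6 without UCM replicate 2 or UCM replicate 3. The members' median log2 fold change was -1.42 to -1.20 with libraries left out. Shares of all tested genes called under the alternatives are not given here. Genes of SREBP regulation higher in ACM numbered 0 in edgeR with the default filter but 1 in DESeq2, 2 with a filter of at least 1 count in total, 1 with at least 10 counts in every library, and 0 to 1 with libraries left out (1 without UCM replicate 1). Sterol transport genes higher numbered 0 but 1 in DESeq2 and 1 with the filter of at least 1 count. Isoprenoid metabolism genes lower numbered 0 but 1 with that filter. The cause of these differences was not tested. With libraries left out, 8 to 11 late sterol genes, 3 to 4 supply genes and 2 to 4 sterol transport genes were lower, and counts were deep enough that each of the 9 members had at least 178 counts in every library. In the windows nearest to the GENCODE starts, the numbers of members with a motif were the same over 300 bases (5 of 7 with CCAAT, 6 of 7 with GGGCGG).

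The sources used here tie libraries with the same replicate number by that number alone. Their deviations from the group means correlated at 0.318, 0.035 and 0.177 for replicates 1, 2 and 3. The value of replicate 1 was the highest of any ACM and UCM pair, whereas ACM replicate 3 correlated better with UCM replicate 2 (0.196). With the replicate block, 7 members were lower, 1 gene of SREBP regulation was higher and 1 gene of isoprenoid metabolism was lower.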
